A study of Mus musculus with 9 samples.

Results

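The noncoding RNAs of the imprinted Meg3 locus on mouse chromosome 12 were followed in cells sorted as retinal ganglion cells (RGCs) after optic nerve crush (ONC) and zinc chelation. The locus was selected on the RPKM of Mir770 (reads scaled to exon length and library depth) in these same libraries, because this row of a short gene within Meg3 was higher in TPEN than in ONC. Of the 4 names chosen (Meg3, Mir770, Rian and Mirg), 3 are among the 15228 listed genes of GRCm38, and Mirg was not analysed here. All libraries came from wild-type C57BL/6J mice aged 6 to 8 weeks. Ctrl cells were taken from uninjured retinas. ONC cells were taken on day 3 after the nerve was crushed, from eyes that had received PBS. TPEN cells were taken on the same day after the same crush, from eyes that had received TPEN, a membrane-permeable chelator of zinc, at 100 μM. The crush is therefore shared by ONC and TPEN, and each group had 3 libraries.

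Imprinted genes are expressed from only the maternal or only the paternal allele. In the domain between Dlk1 and Dio3, the paternal allele expresses protein-coding genes, whereas the maternal allele expresses long noncoding RNAs that all run in one direction, from Meg3 through Rian to Mirg. Meg3 is a largely nuclear RNA that is abundant in neurons. Rian is the host of small nucleolar RNAs, and Mirg is the host of a large group of microRNAs. A microRNA is cut from a hairpin in a longer host transcript, and it recognises its targets mainly through its seed, here bases 2 to 8.

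The Mir770 row covers a hairpin of 94 bases on the plus strand (GRCm38, chr12:109563692-109563785). The hairpin is shown because its row chose the locus, with both mature arms in capitals. The mature sequences of the 2 short genes inside Meg3 follow with the seed in capitals, all as RefSeq gives them for GRCm38.p6.

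Mir770 hairpin: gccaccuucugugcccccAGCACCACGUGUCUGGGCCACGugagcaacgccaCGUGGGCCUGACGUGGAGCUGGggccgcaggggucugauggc

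mmu-miR-770-5p: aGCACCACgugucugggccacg

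mmu-miR-770-3p: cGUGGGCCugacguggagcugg

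mmu-miR-1906: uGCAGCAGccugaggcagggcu

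The 3 seeds differed from one another, and 0 other mature mouse sequences in the RefSeq table shared any of them. The RefSeq table holds 61 microRNA genes between Dlk1 and Dio3, of which 2 lie inside Meg3 on its strand, 3 inside Rian and 14 inside Mirg. The libraries were made from messenger RNA and enriched for products far longer than a mature microRNA, so the Mir770 row counts fragments of the longer host transcript. The mature microRNA, at 22 bases, was not measured.

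Between the end of Dlk1 and the start of Dio3, 4 genes were listed, all on the plus strand. Meg3 spans chr12:109541001-109571726, with a listed exon length of 18089 bases. Rian spans chr12:109603940-109661716, with a listed exon length of 17475 bases, and no other listed gene overlaps it. Mir1906-1 (chr12:109544541-109544620, 80 bases) and Mir770 lie inside Meg3. Dlk1, Rtl1 and Dio3, the protein-coding genes of the domain, and 52 other noncoding genes named for it were not analysed here.

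**Figure D1:**
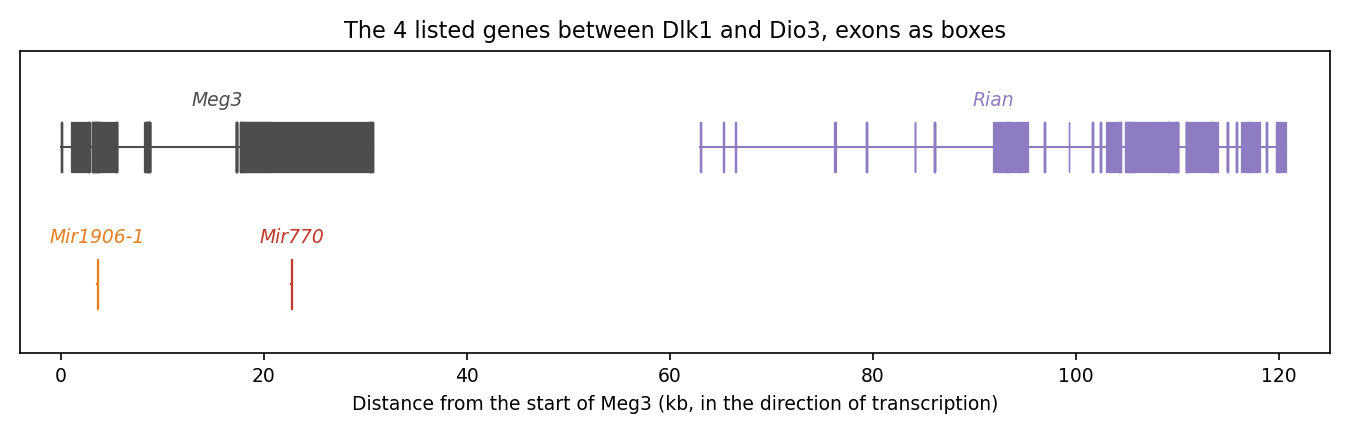
Map of the 4 listed genes between Dlk1 and Dio3, as distance in kb from the start of Meg3, with exons of all transcripts as boxes and introns as lines. Mir1906-1 and Mir770 are drawn on a lower line under the Meg3 exons that hold them, and Rian lies downstream of Meg3 with no overlap.

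The annotation (GENCODE M21) places the 2 short genes in different parts of Meg3. It gives Meg3 11 transcripts, whose exons together cover the same 18089 bases as the listed length. Mir1906-1 lies in exons of 5 of these transcripts, near the start of the gene. Mir770 lies in an exon of only 1 transcript, which has 5 exons. That exon (chr12:109558640-109571726) is 13087 bases long and makes up 72.3% of the listed length of Meg3, and Mir770 begins 5052 bases into it. Every base of Mir770 is thus also a listed Meg3 base on the same strand, and the sources used here do not state whether a read was counted for both. The Mir770 row held reads in every library, so reads that overlap both genes were not all discarded.

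The start of Meg3 is where transcription of the maternal noncoding RNAs is thought to begin, and 3 short motifs of promoters were searched in the RefSeq window around it (GRCm38.p6, chr12:109540746-109541045, plus strand, 250 bases before to 50 after the start). The first was the cAMP response element, TGACGTCA. The second was the letters TATAAA. The third was the letters CCAAT. Each was sought on both strands. Matches are in capitals in the window, where the second motif occurs on both strands in overlapping positions.

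Meg3 promoter: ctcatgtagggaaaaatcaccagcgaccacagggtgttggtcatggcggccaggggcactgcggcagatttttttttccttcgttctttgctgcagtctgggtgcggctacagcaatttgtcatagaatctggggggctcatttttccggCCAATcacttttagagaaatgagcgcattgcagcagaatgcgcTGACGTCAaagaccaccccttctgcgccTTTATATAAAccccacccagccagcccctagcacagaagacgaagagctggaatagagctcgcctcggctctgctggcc

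The cAMP response element was present in 1.79% of 32851 windows of the same length, the second motif in 13.6% and the third in 37.4%. The window of Rian and that of a later Meg3 start held 0 of the 3 motifs, and that of Mirg held the third. These matches describe the letters of the window and not binding.

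The depth allowed Meg3 to be measured precisely and Rian and the short rows less so. The library totals ranged from 19946993 to 23109754 reads, worked out from the values. Meg3 had 4587 to 8806 reads per library, Mir770 56 to 156, Rian 90 to 187 and Mir1906-1 only 8 to 26. Markers were used to check the label of the cells. Rbpms, the RNA-binding protein that defines RGCs, was at 0.605 ± 0.0992 RPKM in Ctrl, 0.393 ± 0.0451 in ONC and 0.319 ± 0.113 in TPEN (SD, n = 3 libraries). The 6 rod markers, in contrast, totalled 17002 to 17816 RPKM in Ctrl, 14880 to 15104 in ONC and 15996 to 16118 in TPEN. With rod markers so high in every library, "RGCs" means here the cells sorted as RGCs. In such bulk samples, fewer cells of a type and less RNA per cell cannot be told apart.

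Meg3 fell after ONC and was above the uninjured level with TPEN. Its level was 16.5, 16.5 and 15.2 RPKM in the Ctrl libraries. It was 11.2, 11.0 and 11.4 RPKM in the ONC libraries. It was 21.95, 21.91 and 21.47 RPKM in the TPEN libraries. Every ONC library was thus below every Ctrl library, and every TPEN library was above them all, a pattern without overlap that 1.04% of the 13566 genes tested showed. The locus was chosen on TPEN and ONC through Mir770, whose bases all lie in Meg3. Part of this separation was therefore set in advance, and nothing is read from that share.

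The group means of Meg3 were 16.1 ± 0.756 RPKM in Ctrl, 11.2 ± 0.200 in ONC and 21.8 ± 0.268 in TPEN (SD, n = 3 libraries). Differences were tested with limma on log2(RPKM + 0.1), a scale that understates the change of low genes, and p-values were adjusted over all genes tested by the Benjamini-Hochberg method. In ONC/Ctrl, Meg3 was downregulated by limma (log2 fold change -0.51 with a standard error of 0.043, adjusted p = 2.8e-05), and its ONC mean was 0.699 of the Ctrl mean. In this comparison 6.97% of genes were lower at an adjusted p under 0.05. In TPEN/Ctrl, Meg3 was upregulated 1.36-fold (log2 fold change 0.44 with a standard error of 0.043, limma adjusted p = 1.3e-04), where 8.36% of genes were higher. The ONC libraries of the first comparison and the TPEN libraries of the second also entered the contrast by which the locus was chosen, and Meg3 shares bases with Mir770, so neither test is independent of that choice. In TPEN/ONC the level of Meg3 was 1.94-fold higher, given as a description because the choice of the locus used that contrast.

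**Figure D2:**
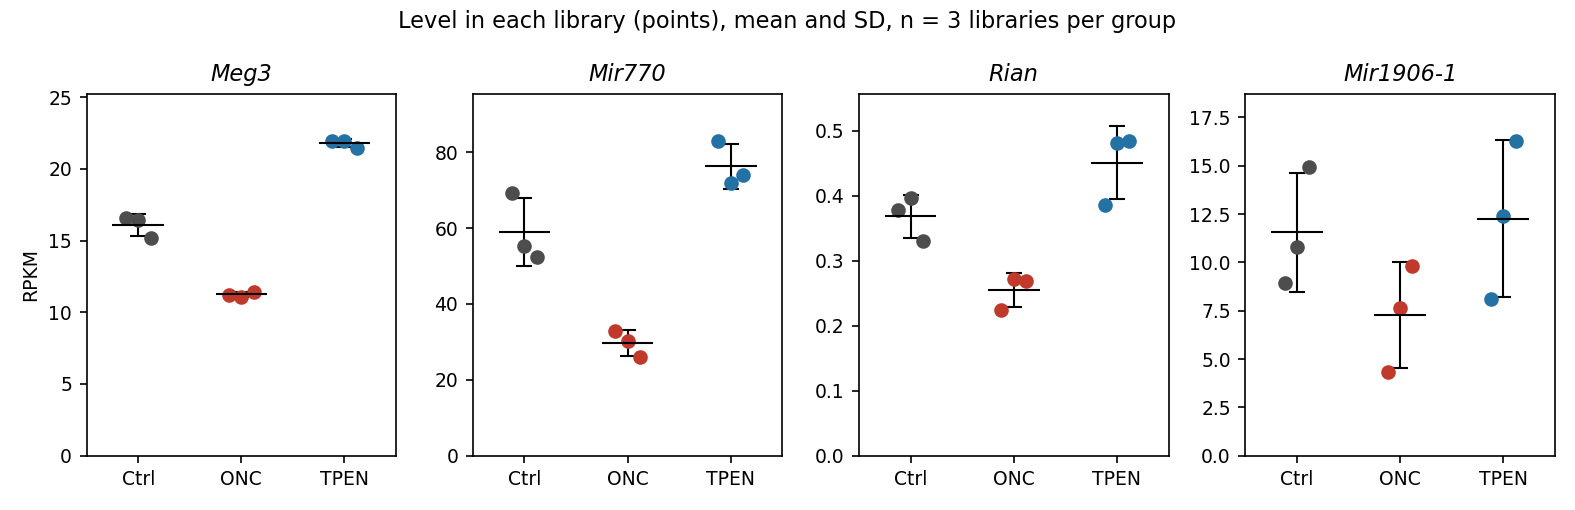
RPKM (axis from 0, a separate scale for each gene) of Meg3, Mir770, Rian and Mir1906-1 in Ctrl, ONC and TPEN. Points are libraries, and lines with bars are the mean and SD of 3 libraries. For Meg3, Mir770 and Rian all ONC points lie below all Ctrl and TPEN points, whereas the groups overlap for Mir1906-1.

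The reads of the short rows inside Meg3 were few beside those of Meg3. When the reads listed for Mir770 and Mir1906-1 were subtracted from those of Meg3, the ratio of the ONC to the Ctrl mean was 0.704, compared with 0.699 before. The ratio of TPEN to Ctrl was 1.36 with and without them. Whether those reads were counted for Meg3 is not known, and so few reads could hardly have moved the ratios.

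Mir770 showed the same order of the groups as Meg3, with lower precision. It was at 69.3, 55.2 and 52.5 RPKM in Ctrl. It was at 32.9, 30.1 and 25.9 RPKM in ONC, from 71, 65 and 56 reads. It was at 83.0, 71.8 and 74.1 RPKM in TPEN. The ONC libraries were the lowest and did not overlap with the others, as for 5.81% of all 15228 genes. The lowest TPEN library was only just above the highest Ctrl library, and 1.04% of the 13566 genes tested showed this full order. Mir770 was chosen on TPEN and ONC, so part of this separation was set in advance.

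The values of Mir770 chose the locus and are therefore given without a p-value. Its means were 59.0 ± 9.02 RPKM in Ctrl, 29.6 ± 3.48 in ONC and 76.3 ± 5.92 in TPEN (SD, n = 3). The log2 fold change was -0.99 (standard error 0.11) in ONC/Ctrl, 1.37 in TPEN/ONC and 0.38 in TPEN/Ctrl. In TPEN/ONC, 0.818% of genes passed an adjusted p of 0.05 together with a 1.5-fold rise, in the contrast that the choice used. Of these, 86 reached a mean of 1 RPKM and had every TPEN library above every ONC library. By log2 fold change, Mir770 (1.37) came first among the 86, a place that is no support, since Mir770 was chosen by this contrast. Just below it were Gm17530 (1.34), Tfap2c (1.28), Hbb-bs (1.26) and Snhg11 (1.19), and Meg3 (0.95) was at place 20.

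In the comparisons with ONC, the Mir770 row differed by more than the Meg3 row that surrounds it, and in TPEN/Ctrl it did not (log2 fold change 0.38 and 0.44). This is a description, since Mir770 was selected on its difference between TPEN and ONC. Its reads were 1.90 ± 0.236% of those of Meg3 in Ctrl, 1.37 ± 0.176% in ONC and 1.82 ± 0.133% in TPEN (SD, n = 3 libraries). The highest ONC library was at 1.52% (95% Wilson interval 1.21% to 1.91%) and the lowest TPEN library at 1.70% (1.45% to 2.00%). Shares in ONC were thus below those in the other groups without overlap, but the counting intervals of single libraries overlapped. These intervals cover counting error only.

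**Figure D3:**
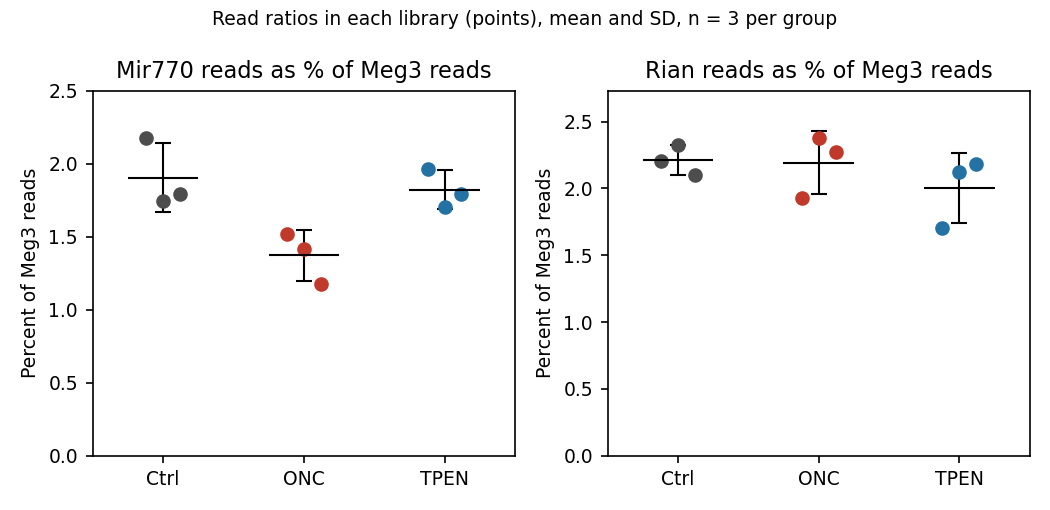
Reads of Mir770 (left) and of Rian (right) as a percent of Meg3 reads in each library (points), with the mean and SD of 3 libraries per group. The Mir770 share lies lowest in ONC, at a mean of 1.37%, whereas the Rian shares of the 3 groups overlap.

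Mir1906-1, the other short row, was too shallow to follow Meg3 closely. In Ctrl it was at 8.92, 10.8 and 14.9 RPKM. In ONC it was at 4.35, 7.62 and 9.80 RPKM. In TPEN it was at 8.13, 12.4 and 16.3 RPKM. All groups overlapped. In ONC/Ctrl it differed by -0.71 on the log2 scale (standard error 0.32, limma adjusted p = 0.169), with a 95% interval of -1.44 to 0.02, which includes the value of Meg3. In TPEN/Ctrl it differed by 0.06 (limma adjusted p = 0.934).

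To see how rows of short hairpin genes relate to their hosts elsewhere, the 81 listed Mir rows were compared with listed genes on the same strand. Of these, 37 lie inside a host exon, and they form 39 row-host pairs. The RPKM of the row was 3.27 times that of the host as the median over these pairs, and Mir770 with Meg3 was itself the pair at the median, as means over the 9 libraries. A fragment that touches a short row is counted whole against few bases, so the RPKM of such a row cannot be read as the level of its host. In ONC/Ctrl the log2 fold change of Mir770 minus that of Meg3 was -0.48, compared with a range of -0.61 to 0.54 over the pairs, and 2 pairs had a lower value. In TPEN/ONC the difference for Mir770 was 0.42, with a range of -0.53 to 0.56 over the pairs. In TPEN/Ctrl it was -0.06. These ranges include rows with few reads. Among the 15 pairs with at least 50 reads in every library, those other than Mir770 ranged from -0.28 to 0.16 in ONC/Ctrl. In TPEN/ONC they ranged from -0.47 to 0.13. The choice of Mir770 used TPEN/ONC, and ONC/Ctrl shares its ONC libraries, so nothing is read from its place among the pairs.

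**Figure D4:**
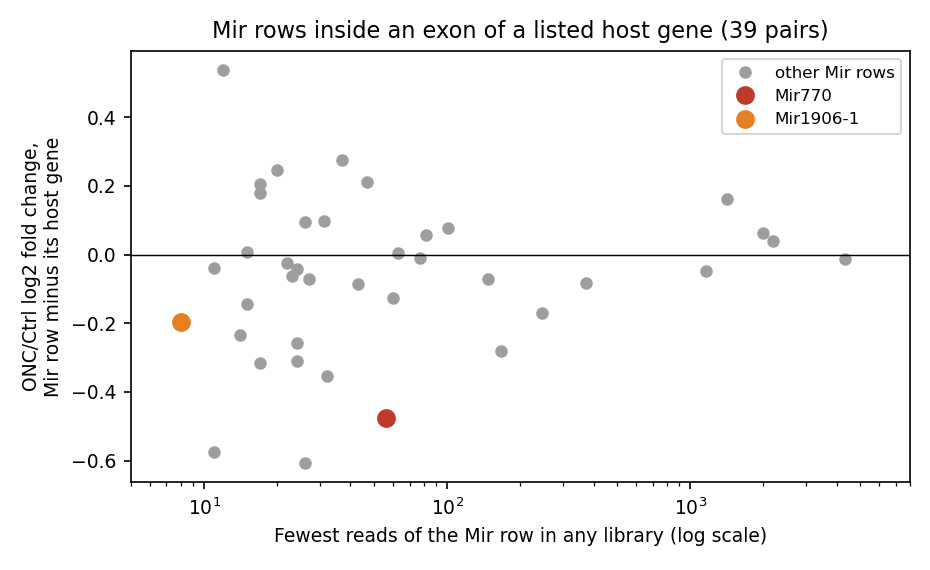
ONC/Ctrl log2 fold change of each Mir row minus that of the listed gene whose exon holds it (vertical axis), against the fewest reads of the row in any library (horizontal axis, log scale), for 39 pairs. Mir770 (red) lies at -0.48 with 56 reads, and Mir1906-1 (orange) has 8 reads.

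Rian was expressed far below Meg3, with the same order of the groups. Per length, its RPKM was 0.0229 ± 0.00116 of that of Meg3 in Ctrl (SD, n = 3). Rian was at 0.378, 0.396 and 0.331 RPKM in Ctrl. It was at 0.224, 0.272 and 0.269 RPKM in ONC. It was at 0.387, 0.482 and 0.485 RPKM in TPEN. Every ONC library was below every Ctrl and every TPEN library, as for 5.81% of all 15228 genes, whereas Ctrl and TPEN overlapped. The ONC and TPEN libraries also entered the choice of the locus.

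With a mean of 0.358 RPKM, Rian did not reach the mean of 0.5 RPKM set for the genes tested, and it was tested in a fit of all listed genes. The ONC mean was 0.692 of the Ctrl mean, close to the 0.699 of Meg3. In ONC/Ctrl it differed by -0.40 on the log2 scale (standard error 0.15, limma adjusted p = 0.0914), with a 95% interval of -0.73 to -0.07 that is not adjusted for the number of genes. This did not pass the test, where 6.43% of all genes were lower. It passed after quantile normalization between libraries (-0.69, limma adjusted p = 0.00959) and with voom on whole reads (-0.54, limma adjusted p = 0.0140). In TPEN/Ctrl it differed by 0.23 (limma adjusted p = 0.357), with an interval of -0.10 to 0.56. In TPEN/ONC it was 0.63, as a description.

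The ratio of Rian to Meg3 reads asks whether the downstream RNA moved with the upstream one. Rian reads were 2.21 ± 0.112% of Meg3 reads in Ctrl, 2.19 ± 0.235% in ONC and 2.00 ± 0.262% in TPEN (SD, n = 3). The shares of the 3 groups overlapped. On the log2 scale the ONC ratio minus the Ctrl ratio was -0.017, with p = 0.9 in an exact two-sided permutation test that with 3 libraries per group cannot go below 0.1. The sign of so small a difference turned without Ctrl replicate 2 (0.020) or ONC replicate 1 (0.073).

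Across the 9 libraries, the members had similar profiles, given as a description because the same 3 groups set the values. Pearson's r of log2(RPKM + 0.1) was 0.955 between Meg3 and Mir770, which share reads or bases, 0.933 between Meg3 and Rian, and 0.873 between Mir770 and Rian. Of 12140 other genes that reached a mean of 1 RPKM, 22 were more like Meg3 than Mir770 was, and 63 were more like it than Rian was.

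The gene most like Meg3 was Snhg11, a noncoding host gene of small nucleolar RNAs on chromosome 2, with r = 0.997. Its level was 4.93 ± 0.343 RPKM in Ctrl, 3.118 ± 0.0366 in ONC and 7.25 ± 0.224 in TPEN (SD, n = 3). Next were Atrx (r = 0.992), the gene of a chromatin remodeller on the X chromosome, and Ptprt (r = 0.986), the gene of a receptor-type tyrosine phosphatase. Atrx moved over a narrower range, with all ONC libraries at 0.864 to 0.870 of its Ctrl mean and all TPEN libraries at 1.10 times that mean. Genes among those most like Mir770 were Kif21a (0.974), a kinesin gene, and Plch1 (0.968), a phospholipase C gene. Rian was most like Zbtb37 (0.985), Slc8a3 (0.985), the gene of a sodium-calcium exchanger, and Myef2 (0.975).

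Markers of other retinal cell types moved between the groups as well. The summed level of the 8 listed amacrine markers (of 10 named, with 0 listed at 0) was 33.9 to 36.1 RPKM in Ctrl, 29.1 to 30.1 in ONC and 35.7 to 38.3 in TPEN. Most of that sum was Slc6a9, with means of 23.1, 18.2 and 21.4 RPKM. The single markers did not all share its order. Tfap2b had means of 1.83, 2.07 and 1.65 RPKM. Tfap2c (1.34, 1.05 and 2.68) and Pax6 (6.58, 6.24 and 8.08) were instead lowest in ONC and highest in TPEN. Of the 5 amacrine markers tested, 0 rose and 1 fell in ONC/Ctrl, beside 11.7% higher and 6.97% lower among all genes. In TPEN/ONC, 4 rose and 0 fell, where 1002 of 13566 genes passed in either direction. The summed level of the 6 cone markers was 105 to 109 RPKM in Ctrl, 90.6 to 98.3 in ONC and 159 to 162 in TPEN. This was the same order as Meg3 without overlap. The rod sum was also lowest in ONC without overlap, and in ONC/Ctrl 5 of the 6 rod markers fell and 1 rose. The 6 bipolar markers totalled 78.3 to 81.2 RPKM in Ctrl, 71.8 to 73.2 in ONC and 75.2 to 78.9 in TPEN. The sums of Müller glia, astrocyte and endothelial and pericyte markers were instead higher in ONC than in Ctrl without overlap. Of the 6 Müller glia markers, however, 3 fell and 1 rose in ONC/Ctrl. The sum of the 12 listed RGC markers (of 14 named, with 0 listed at 0) was 373 to 382 RPKM in Ctrl, 397 to 420 in ONC and 311 to 325 in TPEN. Most of that sum was Nefl, a neurofilament gene, with means of 258, 264.5 and 198 RPKM, and the single markers did not share its order. In ONC/Ctrl, Nefh, another neurofilament gene, fell by 0.34 on the log2 scale (limma adjusted p = 3.7e-04), whereas Gap43, a growth-associated gene, rose by 1.61 (limma adjusted p = 4.9e-09). Thy1, the gene of the sorted antigen CD90, had means of 4.74 RPKM in Ctrl, 5.35 in ONC and 7.12 in TPEN. Nefl, Nefh, Gap43 and Thy1 were picked after their values were seen. Of the 9 RGC markers tested in ONC/Ctrl, 4 rose and 1 fell, beside 11.7% higher and 6.97% lower among all genes. Pou4f1, an RGC marker under the limit of 0.5 RPKM, had means of 0.571 RPKM in Ctrl, 0.183 in ONC and 0.241 in TPEN. The 9 markers of microglia and macrophages were at 3.67 to 4.58 RPKM in Ctrl, 39.03 to 39.82 in ONC and 19.29 to 22.04 in TPEN. The part of these shifts in the levels of Meg3, Mir770 and Rian was not tested.

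**Figure D5:**
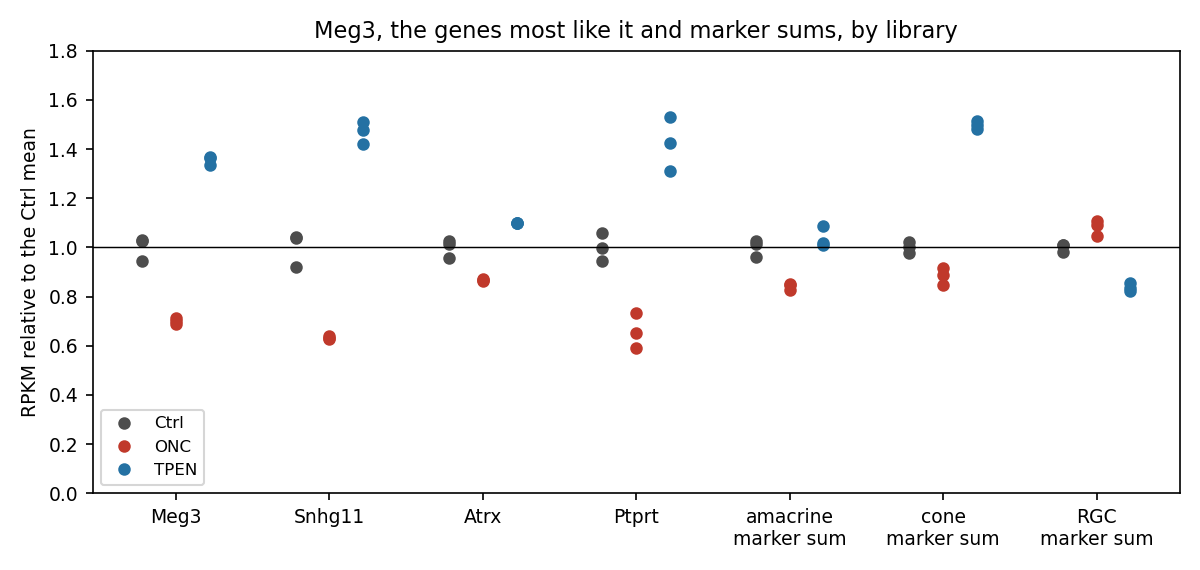
RPKM of Meg3, the 3 genes most like it and the summed markers of amacrine cells, cones and RGCs in each library (points), divided by the mean of the 3 Ctrl libraries (line at 1). In ONC, Meg3 and Snhg11 lie lower than the amacrine and cone sums do, and in TPEN the cone sum lies as high as Snhg11, whereas the RGC sum lies below 1.

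The genes on either side of the domain were mostly within the threshold in ONC/Ctrl. Of 25 flanking genes tested, 1 rose (Ccdc85c, log2 fold change 0.90, limma adjusted p = 0.00101) and 1 fell (Begain, -0.24, limma adjusted p = 0.0383). The median log2 fold change of the flanking genes was 0.01, compared with 0.02 over all genes tested. In that comparison 11.7% of all genes were higher and 6.97% were lower. Begain lost its call without Ctrl replicate 1 or 3, without any of the ONC libraries and without TPEN replicate 1. Without Ctrl replicate 3, 4 flanking genes rose.

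Imprinted genes elsewhere in the genome did not share one direction in ONC/Ctrl. Of 27 tested, 5 rose and 2 fell, beside 11.7% higher and 6.97% lower among all genes tested, with a median log2 fold change of -0.03. The largest rises were those of Mest (1.11, limma adjusted p = 5.7e-06), Inpp5f (0.66) and Plagl1 (0.33), the gene of a zinc finger transcription factor. Ube3a, the gene of a ubiquitin ligase, fell by 0.30 on the log2 scale, and Peg3, the gene of a zinc finger protein expressed from the paternal allele, fell by 0.24 (limma adjusted p = 1.8e-04). Peg3 was at 48.0 ± 0.396 RPKM in Ctrl, 40.6 ± 0.151 in ONC and 49.8 ± 0.843 in TPEN (SD, n = 3). The calls of Plagl1 and Ube3a were lost without Ctrl replicate 1 or 2 or ONC replicate 1, and that of Ube3a also without ONC replicate 2. The number that rose was 2 without Ctrl replicate 1 or 2 and 3 without ONC replicate 1 or 3, and the number that fell was 1 without Ctrl replicate 1 or 2 or ONC replicate 1 or 2.

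Regulators of imprints and chromatin that reached the limit of 0.5 RPKM moved over a narrow range. Of 18 tested in ONC/Ctrl, 4 rose and 1 fell, beside 11.7% higher and 6.97% lower among all genes tested, with a median of 0.04. Rbbp7, the gene of a histone-binding protein (0.27), and Creb1, the gene of the factor that binds the cAMP response element (0.22), were the largest rises among those that passed. Dnmt3b differed by 0.32 but did not pass (limma adjusted p = 0.0685). Creb1 was at 7.74 ± 0.206 RPKM in Ctrl, 9.04 ± 0.182 in ONC and 9.23 ± 0.150 in TPEN (SD, n = 3). Its part in the level of Meg3 was not tested. Dnmt1, the gene of the maintenance DNA methyltransferase, rose (0.13, limma adjusted p = 0.0496) and Jarid2, the gene of a partner of Polycomb, fell by 0.13 (limma adjusted p = 0.0414). The call of Dnmt1 was lost without any library but Ctrl replicate 1, and that of Jarid2 without any library but TPEN replicate 3. The number that rose was 2 without Ctrl replicate 2 or ONC replicate 1 or 2.

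Of 10 genes of microRNA processing, 2 rose in ONC/Ctrl and the others did not pass, beside 11.7% of all genes tested that were higher. Both encode parts of the complex that cuts hairpins from host transcripts in the nucleus, and with 2 genes nothing is read from this. Dgcr8, its RNA-binding subunit, had a log2 fold change of 0.29 (limma adjusted p = 0.00106). Drosha, its nuclease, had one of 0.12 (limma adjusted p = 0.0184), and the call of Drosha was lost after quantile normalization (limma adjusted p = 0.0843), without the first Ctrl library and without the first or the third ONC library. In a list of 5 other noncoding RNAs tested, Neat1 rose (0.43, limma adjusted p = 0.0145) and Snhg11 fell by 0.64 (limma adjusted p = 1.2e-04), where 6.97% of all genes were lower. The list is called nuclear below, but where these RNAs lay in the cell was not measured. Neat1, a scaffold of nuclear paraspeckles, thus went the other way from Meg3, and its call was lost without Ctrl replicate 1 or ONC replicate 3.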

How the data were processed

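The authors sorted CD90.2+ cells negative for CD48, CD15 and CD57, made stranded mRNA libraries with molecular identifiers, trimmed reads (Trimmomatic 0.36, per the submitters' processing notes) and mapped them to GRCm38/mm10 with STAR. The counting program and annotation are not given in the sources used here. The deposited values are RPKM per gene and library. The deposited log2 fold changes and p-values of the authors' comparisons, with their up or down calls, were not used. Whole reads were recovered from RPKM times length (100% of values within 0.01 read). Differences were tested with limma 3.58.1 (R 4.3.3) on log2(RPKM + 0.1) over all 9 libraries, with a trend of variance on mean, for the 13566 genes that reached a mean of 0.5 RPKM. Rian lay under that limit and was tested over all 15228 genes, a departure from the planned test. The fit gave a p-value for every gene and comparison, but none is reported for Mir770 or for any member in TPEN/ONC. The 86 genes ranked in TPEN/ONC were nevertheless picked with the adjusted p threshold. On simulated counts for ONC/Ctrl (13567 genes), 37 of 49 genes halved in level were called. At 0.667 of their level 29 of 50 were called, and 5 of 13368 unchanged genes were called. These counts hold for the simulated spread only. Replicate libraries differed by more than sampling noise. No source says that they came from separate mice, so p-values measure only the spread between libraries. The members and lists were chosen with earlier results of these data known. Named list genes passed in ONC/Ctrl, at most 3 per direction by size. The genes most alike had the highest r without overlapping the member. One gene that this rule named is not reported here. Alternatives were quantile normalization, other filters and pseudocounts, only 6 libraries, a replicate block, voom and leaving out each library.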

Additional observations from a re-analysis of the deposited data

How the results depend on the processing

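Meg3 kept its direction and its call in ONC/Ctrl and TPEN/Ctrl under all alternatives run. Without single libraries its log2 fold change ranged from -0.55 to -0.49 in ONC/Ctrl and from 0.40 to 0.46 in TPEN/Ctrl. Mir770 ranged from -1.07 to -0.87 in ONC/Ctrl. Rian in ONC/Ctrl passed after quantile normalization (-0.69) and with voom (-0.54), and ranged from -0.46 to -0.34 without single libraries, where it did not pass (limma adjusted p from 0.0894 to 0.231). With a pseudocount of 1 RPKM the TPEN/ONC difference was 0.90 for Meg3 and 0.21 for Rian, and with voom 0.82 for Rian. The Rian to Meg3 log2 ratio ranged from -0.078 to 0.073, positive without Ctrl replicate 2 (0.020) or ONC replicate 1 (0.073).

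Over all genes tested, the replicate numbers did not pair the libraries. Correlations of deviations between libraries with the same number ranged from -0.062 to 0.027, and 1 of 9 libraries was most like another of its own number. The RPKM of Mir1906-1, however, rose from replicate 1 to replicate 3 within every group. For Mir770 in ONC/Ctrl, the standard error was 0.057 with a replicate block and 0.113 without it. With the replicate block, Mir1906-1 passed in ONC/Ctrl at the same log2 fold change of -0.71 (limma adjusted p = 0.00209, compared with 0.169 without it). In the same fit, Meg3 had a log2 fold change of -0.51 in ONC/Ctrl, flanking genes that fell numbered 0, imprinted genes elsewhere 3 higher and 1 lower, regulators 2 higher and 0 lower, and nuclear noncoding RNAs 2 higher. After quantile normalization the counts were 2 flanking genes higher, 2 regulators higher and 4 lower, 1 gene of microRNA processing higher, and 2 nuclear noncoding RNAs lower. Without single libraries, counts of genes higher and lower in ONC/Ctrl ranged from 1 to 4 (4 without Ctrl replicate 3) and from 0 to 1 for the flanks, from 2 to 5 and from 1 to 2 for imprinted genes elsewhere, from 2 to 4 and from 0 to 1 for regulators, from 1 to 2 higher for microRNA processing, and from 0 to 2 higher for nuclear noncoding RNAs. Of the 15 genes named from the lists, 8 kept their call under every alternative run and 7 lost it in at least 1. The causes were not tested.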

Other observations

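Other listed noncoding RNAs did not share one profile. Malat1, an abundant RNA of nuclear speckles, was at 217 RPKM in Ctrl, 214 in ONC and 266 in TPEN (means, n = 3 libraries), with a log2 fold change of -0.02 in ONC/Ctrl (limma adjusted p = 0.745). Gas5, a host of small nucleolar RNAs, had means of 9.27, 10.9 and 8.95 RPKM in Ctrl, ONC and TPEN. Peg13, an imprinted noncoding RNA, had means of 32.6, 31.6 and 32.6 RPKM. Kcnq1ot1 and Snhg14, both imprinted, had means under 0.5 RPKM over the 9 libraries and were not in the main test. Like Meg3 and Rian, both had their lowest mean in ONC and their highest in TPEN. Snhg14 had means of 0.465, 0.357 and 0.506 RPKM in Ctrl, ONC and TPEN. Kcnq1ot1 had means of 0.149, 0.143 and 0.176 RPKM. In the fit of all genes used for Rian, Snhg14 differed by -0.31 in ONC/Ctrl on the log2 scale (limma adjusted p = 0.138). Kcnq1ot1 differed by -0.03 there, and neither passed.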
